A study of Homo sapiens with 2 samples.

Results

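Tumour cells carrying the hashtag pair HTO3+HTO6 were compared with those carrying HTO4+HTO8 and HTO4+HTO9, to see which interferon-type genes were near the same level in HTO3+HTO6 and which lay near populations with little interferon-type expression. The pair of a cell was its 2 highest of the hashtags HTO2 to HTO9, where the second had 20 counts or more and at least 4 times the third, and a cell had to show at least 500 genes with no more than 20% of its UMIs (counted molecules) mitochondrial. This gave 124 cells of HTO3+HTO6, 197 of HTO4+HTO8 and 110 of HTO4+HTO9, which is 431 of the 2994 cells with a pair and of 9083 barcodes in all. The 3 populations were chosen by their measured interferon-type levels, so what follows is a description of those levels and no test was made of them.

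The cells were OVCAR5, an established human ovarian carcinoma line, with an interferon gamma (IFNy) sensing reporter and CFP, and all had been sorted from the pool as CFP+ bystander cells. The line grew as tumours in NSG-B2m-/- mice, and the tumours were injected with IFNg at 100 ng/ml, TNFa at 10 ng/ml or both. The pool of 13 tumours held, per the labels, 3 given TNFa and 2 given IFNg with TNFa for 6 h, 2 given IFNg for 24 h and 1 for 48 h, and unexposed tumours at 6 h (2), 24 h (2) and 48 h (1). The treatment fields of the gene library and the hashtag library each name 1 condition (unstimulated in vitro, and TNFa) and go against this list of the pool. The sources used here do not say which pair marked which tumour, so a population is named only by its pair, and no exposure or time is assigned to it. All populations came from 1 pooled library, and whether a pair held 1 tumour was not stated.

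IFNg binds its receptor, and Janus kinases pass the signal to transcription factors that bind GAS elements in the promoters of first-wave genes such as IRF1. IRF1 in turn binds ISRE elements in many later genes, among them those of the guanylate-binding proteins, the chemokine CXCL10 and the peptide transporter TAP1. MHC class I genes, which present peptides to CD8 T cells, and MHC class II genes, which present to CD4 T cells, share an upstream promoter module with a Y box, through which the transactivators NLRC5 (class I) and CIITA (class II) act.

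The promoters below are shown because each holds a match to one of these elements and they span the genes from the highest to the lowest in HTO3+HTO6. They are from RefSeq (GRCh38.p14), written 5′ to 3′ on the gene's strand, and end 41 bases before the annotated start. They begin 160 bases before the start, or 237 for CXCL10. Capitals mark an ISRE-type match (GAAANNGAAA), a GAS-type match (TTCNNNGAA) or the Y box (CTGATTGG, which reads CCAATCAG on the other strand), searched on both strands. In B2M 2 ISRE-type matches overlap. Lower-case stretches may still hold sites whose letters differ from these patterns. HLA-B and HLA-C were near the level of HTO4+HTO8 and HTO4+HTO9, B2M and HLA-DRB1 lay midway, and IRF1 and CXCL10 were near the low populations.
HLA-B (chr6:31357220-31357339, minus strand): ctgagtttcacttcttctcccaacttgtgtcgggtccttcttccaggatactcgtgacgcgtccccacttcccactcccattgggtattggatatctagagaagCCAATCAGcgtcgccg
HLA-C (chr6:31272133-31272252, minus strand): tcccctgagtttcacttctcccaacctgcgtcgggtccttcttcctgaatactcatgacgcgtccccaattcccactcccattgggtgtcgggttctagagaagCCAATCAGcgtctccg
B2M (chr15:44711357-44711476, plus strand): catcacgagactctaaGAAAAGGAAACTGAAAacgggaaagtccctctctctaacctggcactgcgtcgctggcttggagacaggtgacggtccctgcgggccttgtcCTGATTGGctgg
HLA-DRB1 (chr6:32589889-32590008, minus strand): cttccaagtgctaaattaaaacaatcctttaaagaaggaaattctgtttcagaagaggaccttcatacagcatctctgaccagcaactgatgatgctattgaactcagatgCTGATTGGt
IRF1 (chr5:132490814-132490933, minus strand): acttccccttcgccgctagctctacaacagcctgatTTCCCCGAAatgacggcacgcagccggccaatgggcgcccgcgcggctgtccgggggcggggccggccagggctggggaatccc
CXCL10 (chr4:76023538-76023734, minus strand): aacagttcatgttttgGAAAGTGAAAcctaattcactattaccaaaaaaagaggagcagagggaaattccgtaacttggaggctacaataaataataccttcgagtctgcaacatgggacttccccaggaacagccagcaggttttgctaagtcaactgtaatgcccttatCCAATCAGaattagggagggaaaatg

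The levels below are CPM, UMIs of a gene per 1000000 UMIs of the population, with exact Poisson 95% intervals, and intervals of ratios, that cover counting error only. HTO3+HTO6 had 992946 UMIs, HTO4+HTO8 had 1484700 and HTO4+HTO9 had 765923, so 1 UMI in HTO3+HTO6 is worth about 1 CPM. The other 5 populations with HTO3 or HTO4 (HTO3+HTO5, HTO3+HTO7, HTO3+HTO9, HTO4+HTO6 and HTO4+HTO7, with 139 to 278 cells) were the low reference. Only 24.27% of the barcodes of HTO3+HTO6 passed the cell filter, the lowest of 13 populations, against 34.87% of HTO4+HTO8, 40.00% of HTO4+HTO9 and up to 58.16% in HTO4+HTO7. Its barcodes had a median of 28.97% mitochondrial UMIs before the filter, the highest of the 13, and the part of this loss in the results was not tested beyond the barcodes left out, which are described further on.

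The cells of HTO3+HTO6 had the markers of the line. All 11 epithelial markers were detected, with a summed level of 5665 CPM, beside 4445 in HTO4+HTO8, 4576 in HTO4+HTO9 and 5529 to 7630 in the reference. Markers of T and B cells summed to 2.01 CPM, with 8 of 10 at 0, among them PTPRC, CD3D and MS4A1. Fibroblast markers also summed to 2.01 CPM, with 8 of 10 at 0, and 5 of 6 endothelial markers were at 0. Macrophage and monocyte markers summed to 70.5 CPM (55.0 to 89.1) against 53.9 and 43.1 CPM in HTO4+HTO8 and HTO4+HTO9 and 50.1 to 64.0 in the reference, with 5 of 10 at 0, CSF1R and CD163 among them, and the part of such cells in the results was not tested.

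A gene was called raised when both HTO4+HTO8 and HTO4+HTO9 were at least 2-fold above the highest reference population, with 1 CPM added to each. Of the 11911 genes with 30 UMIs or more over these 8 populations, 183 were raised (1.54% of all genes tested), and of 185 interferon-type genes, 116 were (62.7%). The place of HTO3+HTO6 is given as a position on the log2 scale, which is 0 at the highest reference population and 1 at the lower of HTO4+HTO8 and HTO4+HTO9. A raised gene was called kept at a position of 0.7 or more, near low at 0.3 or less, and otherwise between. Among the 116 raised interferon-type genes, 4 were kept (among them HLA-B, HLA-C and the chemokine gene CXCL9), beside 4.37% of all 183 raised genes. A further 23 were between (16.4% of all raised) and 89 were near low (79.2% of all raised). The median position was 0.02, with quartiles of -0.15 and 0.29, and it was 0.01 over all raised genes. In 53 of the 116, HTO3+HTO6 was at or below the highest reference population, and in the rest it was above all 5. The mark is the highest of 5 populations, so a gene at or below it can still lie above most of them. The 67 raised genes outside the interferon-type lists gave 4 kept (GADD45G, IL4I1, NPTX1 and ZNF618, from 5 to 17 UMIs each), 7 between and 56 near low, with a median position of 0.01.

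The limit for kept had 1 of the 116 genes within 0.05 of it and the limit for near low had 12, so the split between those 2 lower classes is not sharp. Just under the limit for kept were HCP5, a transcript of the MHC region, at a position of 0.67 and the ADP-ribosyltransferase gene PARP12 at 0.60, and just above it HLA-B and HLA-C at 0.80. At the limit for near low, PSMB9 and HLA-DQA2 (between) and IFITM3 and C1R (near low) all rounded to 0.30, with TAP1 at 0.27 and HLA-DRA at 0.31. The cell filter bore on the counts. With at most 10% mitochondrial UMIs and 1000 genes, only 15 cells of HTO3+HTO6 with 81872 UMIs were left, and 19 interferon-type genes were then kept, 36 were near low and the median position was 0.35. Leaving the reference population HTO4+HTO7 out moved the median position to 0.12.

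**Figure D1:**
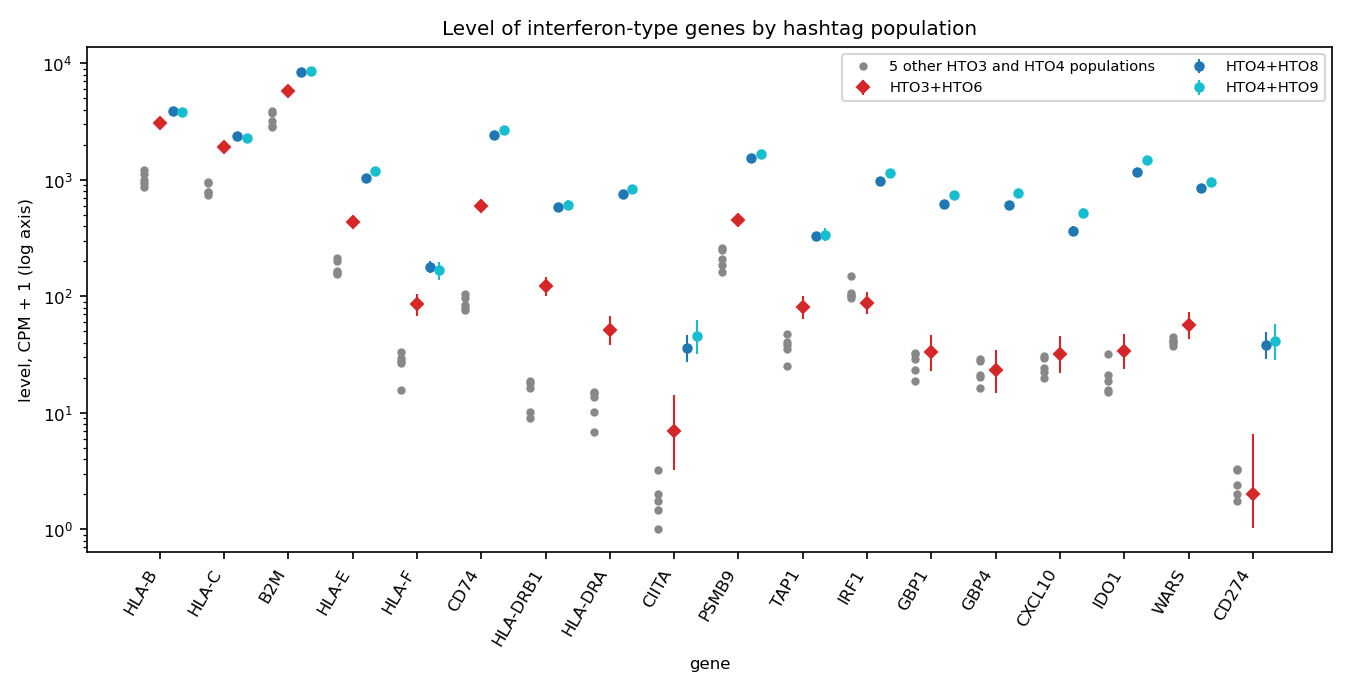
Level of 18 interferon-type genes (CPM + 1, log axis) in HTO3+HTO6 (red diamonds), HTO4+HTO8 and HTO4+HTO9 (blue and cyan circles, bars are exact Poisson 95% intervals) and the 5 reference populations (grey points). The red diamonds sit beside the blue points for HLA-B and HLA-C, midway for CD74 and HLA-DRB1, and among the grey points for GBP1, GBP4, CXCL10 and IDO1.

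HLA-B and HLA-C, heavy chains of class I that hold the peptide at the cell surface, were kept with many counts. HLA-B (chr6:31269491-31357188, minus strand, GRCh38, GENCODE 29) was at 3047 CPM (2940 to 3158) in HTO3+HTO6, 3876 (3777 to 3978) in HTO4+HTO8 and 3828 (3691 to 3969) in HTO4+HTO9. Its reference levels were 864 CPM in HTO3+HTO5, 946 in HTO3+HTO7, 990 in HTO3+HTO9, 1219 in HTO4+HTO6 and 1129 in HTO4+HTO7. HTO3+HTO6 was thus above every reference population, 2.50-fold (2.37 to 2.64) over the highest, and below both others, which were 1.27-fold (1.22 to 1.33) and 1.26-fold (1.19 to 1.32) higher. HLA-C (chr6:31268749-31272130, minus strand) was at 1910 CPM, against 2361 and 2281 and a reference of 740 to 952, a position of 0.80. HLA genes are near-identical in stretches, so reads can be shared among them and the single values are uncertain.

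B2M (chr15:44711487-44718877, plus strand), the light chain shared by all class I molecules, is not an HLA gene and lay lower. It was at 5828 CPM (5679 to 5980) in HTO3+HTO6, 8418 (8271 to 8567) in HTO4+HTO8 and 8562 (8356 to 8772) in HTO4+HTO9. The reference populations held 2871, 3202, 2823, 3782 and 3934 CPM, all below HTO3+HTO6, and the position was 0.52. The non-classical chain HLA-E, a ligand of natural killer cell receptors, was at 437 CPM against 1033 and 1185 and a reference of 153 to 212, a position of 0.46. HLA-F was at 84.6 CPM against 179 and 166 and a reference of 14.7 to 32.6, a position of 0.58, and HLA-G, at 6.04 CPM from 6 UMIs, was near low at 0.13. Of the 7 class I chains measured, with B2M counted, 3 were kept, 3 were between and 1 was near low. Over all raised genes 4.37% were kept, 16.4% between and 79.2% near low.

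Genes of peptide processing and loading, most of them of the class I pathway, lay closer to the reference than HLA-B and HLA-C did. Of 16 members, which include IFI30 and CTSS of the class II pathway, 13 were raised, with 0 kept, 4 between and 9 near low. Over all raised genes 16.4% were between and 79.2% near low, so the count is not read as particular to this list. The median position was 0.14, against 0.01 over all raised genes. The list summed to 4056 CPM (3931 to 4183) against 9560 and 9848 and a reference of 2951 to 3345. PSMB9, an immunoproteasome subunit gene, was at 449 CPM (408 to 493) against 1549 and 1658. Its reference levels ran from 162 to 261, so HTO3+HTO6 was 1.72-fold (1.53 to 1.94) above the highest, at a position of 0.30. TAP1, which carries peptides into the endoplasmic reticulum, was at 79.6 CPM against 329 and 338 and a reference of 24.3 to 46.4, a position of 0.27. The proteasome activator genes PSME1 and PSME2 were at 562 and 942 CPM in HTO3+HTO6, against 1158 and 2508 in HTO4+HTO8, with positions of 0.17 and 0.11. The highest position in this list was 0.49, under those of HLA-B and HLA-C.

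Class II genes were below HTO4+HTO8 and HTO4+HTO9, and 7 of the 12 raised members, CD74 and HLA-DRB1 foremost, lay between these and the reference. The share between over all raised genes was 16.4%. CD74 (chr5:150401637-150412929, minus strand), the invariant chain that guides class II molecules, was at 593 CPM (546 to 643) in HTO3+HTO6, 2444 (2365 to 2525) in HTO4+HTO8 and 2663 (2549 to 2782) in HTO4+HTO9. The reference populations held 75.04, 78.1, 103.5, 95.5 and 83.8 CPM. HTO3+HTO6 was 5.73-fold (4.75 to 6.94) above the highest of these and 4.12-fold (3.78 to 4.50) below HTO4+HTO8, a position of 0.55. HLA-DRB1 was at 121 CPM (100 to 145), against 585 and 611 and a reference of 8.10 to 17.6, a position of 0.54. HLA-DRA (chr6:32439842-32445046, plus strand), the alpha chain that pairs with it, was at 50.4 CPM (37.4 to 66.4) from 50 UMIs, against 761 and 840 and a reference of 5.89 to 14.2, a position of 0.31. The 2 chains of 1 molecule thus differed in position. The other 5 raised members were near low (HLA-DQA1, HLA-DQB1, HLA-DMA, HLA-DMB and HLA-DOA). HLA-DMA, which edits class II peptides, was at 25.2 CPM, inside the reference range of 22.2 to 31.3, against 199 and 222. HLA-DOA had 0 UMIs in HTO3+HTO6 (interval to 3.72 CPM) and in all 5 reference populations, against 24.9 and 37.9 CPM. CIITA, the class II transactivator, had 6 UMIs in HTO3+HTO6, 6.04 CPM (2.22 to 13.2), against 35.0 and 44.4 CPM and a reference of 0 to 2.24, too few to place it.

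Transcription factors of the pathway lay near the reference. IRF1 (chr5:132481609-132490798, minus strand), the factor of the second wave, was at 86.6 CPM (69.3 to 107) against 975 and 1153. The reference populations held 94.9, 99.4, 101.3, 105.3 and 148 CPM, so HTO3+HTO6 had the lowest value of the 8, at a position of -0.28. It was under HTO4+HTO7 beyond counting error, while its interval held the other 4 reference levels. NLRC5, the class I transactivator, had 6 UMIs, 6.04 CPM against 22.9 and 31.3 and a reference of 2.95 to 5.36, a position of 0.08. With as few UMIs as CIITA, it cannot be placed against the reference. Of 10 raised members 9 were near low and 1, CIITA, was between, beside 79.2% near low over all raised genes. The feedback inhibitor SOCS1 was at 12.1 CPM against 86.2 and 90.1 and a reference of 7.66 to 16.7, and the kinase gene JAK2 at 10.1 CPM against 44.5 and 35.3.

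Guanylate-binding proteins, interferon-induced GTPases that act against intracellular pathogens, were at the reference throughout. GBP1 (chr1:89052319-89065360, minus strand) was at 32.2 CPM (22.0 to 45.5) in HTO3+HTO6, 622 (582 to 663) in HTO4+HTO8 and 735 (676 to 798) in HTO4+HTO9. The reference populations held 22.2, 17.7, 31.3, 27.8 and 31.6 CPM, and the ratio to the highest was 1.02 (0.660 to 1.54). HTO4+HTO8 was 19.3-fold (13.6 to 28.4) and HTO4+HTO9 22.8-fold (16 to 33.7) above HTO3+HTO6. GBP4 was at 22.2 CPM against 610 and 774, inside the reference range of 15.3 to 27.98. GBP2 was at 45.3 CPM against 511 and 629, just under the reference range of 47.1 to 55.6. All 6 raised members were near low, with positions from -0.09 to 0.12. As 79.2% of all raised genes were near low, this count is not read as particular to them. Their list summed to 152 CPM (129 to 178) against 2062 and 2554 and a reference of 137 to 167.

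The secreted and surface genes split less evenly. CXCL10 was at 31.2 CPM (21.2 to 44.3) against 366 and 517, with a reference of 18.9 to 29.8. CXCL11 was at 10.1 CPM against 230 and 291 and a reference of 4.12 to 20.9. CXCL9, the other chemokine of this set, was called kept at 11.1 CPM (5.53 to 19.8), but from 11 UMIs, against 25.6 CPM in HTO4+HTO8 and 11.8 CPM (5.37 to 22.3) in HTO4+HTO9. This call did not hold: its position was 0.59 against HTO4+HTO8 alone, 0.53 with up to 50% mitochondrial UMIs and 0.00 in the barcodes left out by the cell filter. IDO1, which breaks down tryptophan, was at 33.2 CPM against 1177 and 1486 and a reference of 14.0 to 31.3. WARS, the tryptophan tRNA ligase, was at 55.4 CPM against 857 and 954 and a reference of 36.8 to 44.0. CD274, the gene of the T-cell inhibitor PD-L1, had 1 UMI in HTO3+HTO6, against 37.0 and 40.5 CPM and a reference of 0.736 to 2.30. Of 14 raised checkpoint, tryptophan and surface genes, 13 were near low, beside 79.2% of all raised genes. BTN3A2 was between, at a position of 0.36.

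Genes shared with type I interferon responses were mostly near low too. As 79.2% of all 183 raised genes were near low, these counts are not read as particular to these lists. Of 8 raised IFIT, OAS and MX effectors 7 were near low, with IFIT3 at 87.6 CPM against 409 and 490 and IFIT2 at 27.2 against 170 and 300. IFIT2 was below HTO4+HTO7, at 62.2 CPM, by more than counting error, at a ratio of 0.437 (0.281 to 0.658). ISG15, a ubiquitin-like modifier, was at 1934 CPM against 4070 and 3991, with a reference of 815 to 1899. IFITM3, a membrane protein that limits virus entry, was at 2358 CPM against 3944 and 3938 and a reference of 1509 to 1896. Among 17 raised genes of the list of other interferon-stimulated genes, which holds ISG15 and IFITM3, 3 were between (IFI44L, IFITM1 and HCP5) and 14 near low. The RNA sensor genes IFIH1 and DDX58 were at 40.3 and 61.4 CPM, against 224 and 156 in HTO4+HTO8. PARP14 and UBE2L6 were at 159 and 142 CPM against 585 and 551 in HTO4+HTO8. All 5 raised sensor genes, 6 of 8 raised PARP, TRIM and ubiquitin-type genes, 3 of 4 raised apolipoproteins L, both raised negative regulators, all 4 raised complement genes, and CASP1 and JAK2 were near low.

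**Figure D2:**
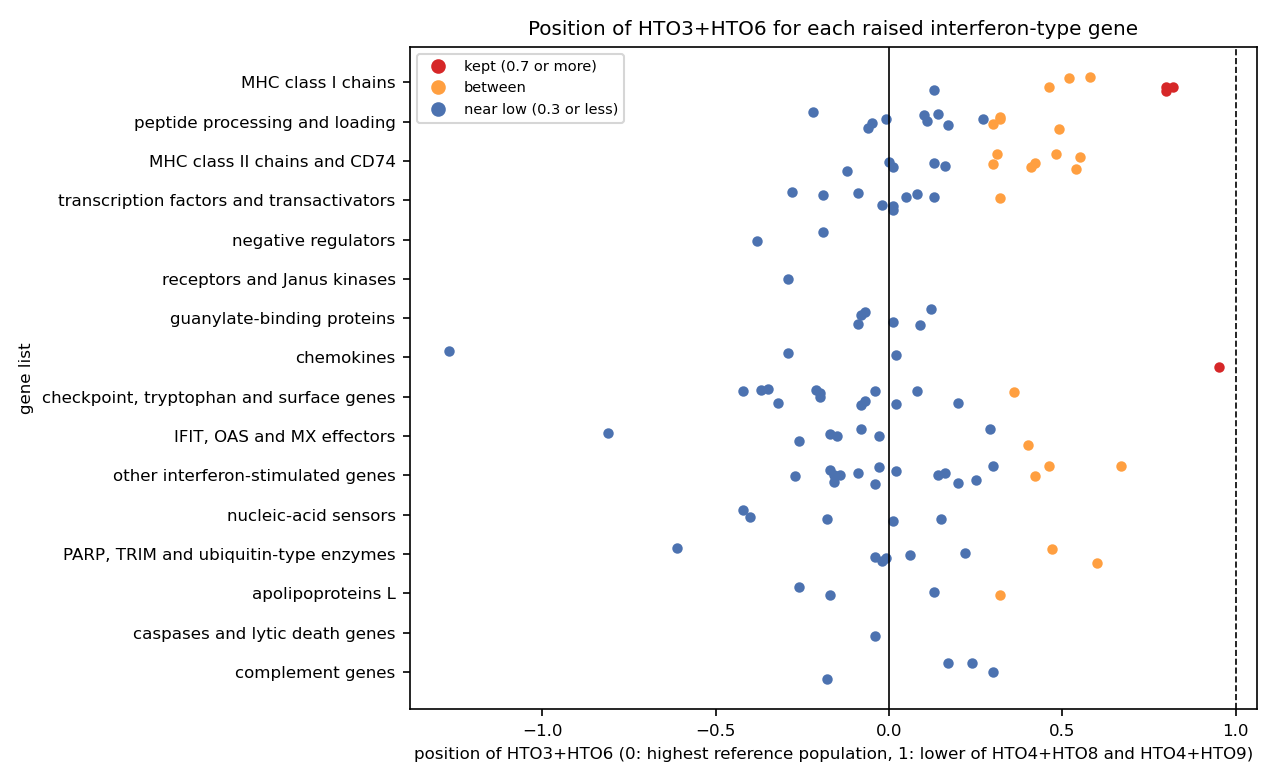
Position of HTO3+HTO6 (x axis, 0 at the highest reference population and 1 at the lower of HTO4+HTO8 and HTO4+HTO9) for each of the 116 raised interferon-type genes, by gene list (y axis; points are spread in height for legibility). HLA-B and HLA-C lie at 0.80 and CXCL9 (11 UMIs) at 0.95, and guanylate-binding proteins lie within -0.09 to 0.12.

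Counting error bore on many of these places. Of the 89 near-low genes, the ratio of HTO3+HTO6 to the highest reference had an interval that included 1 in 76, lay above 1 in 6 and below 1 in 6 (IRF1, TNFSF10, IFIT2, ISG20, IFI35 and IFIH1), and 1 had no ratio. All 89 lay below both HTO4+HTO8 and HTO4+HTO9 beyond counting error. The rule for near low already sets them below both, so this adds only that their counts sufficed. Of the 23 genes between, 16 lay above the highest reference beyond counting error, and 8 had under 30 UMIs in HTO3+HTO6, as 46 of the 89 near-low genes had.

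Over all genes, 25 were 2-fold or more above every reference population in HTO3+HTO6 (0.210% of those tested), and 14 of these 25 were interferon-type. Among them were HLA-B, HLA-C, HLA-E, HLA-F, CD74, CIITA, CXCL9 and 6 class II chains (HLA-DRA, HLA-DRB1, HLA-DRB5, HLA-DPA1, HLA-DPB1 and HLA-DQA2). CIITA and HLA-DQA2 had 6 UMIs each, and their ratio to the highest reference, 2.70, had an interval of 0.578 to 16.7. CIITA was at a position of -0.30 in the barcodes left out by the cell filter, and CXCL9 at 0.00. Except for CXCL9 these genes encode class I or class II presentation proteins or the class II transactivator. Of the 11 that were not interferon-type, S100A9 had the most UMIs, and its values are given further on. Among the interferon-type genes, 111 were 2-fold lower in HTO3+HTO6 than in both others, against 384 (3.22%) of all genes, and 0 were 2-fold higher than both, against 345 (2.90%). Of these 111, 48 lay above every reference population, 55 inside the reference range and 8 below it. Genes 2-fold below every reference numbered 80 (0.672%), with 0 interferon-type.

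**Figure D3:**
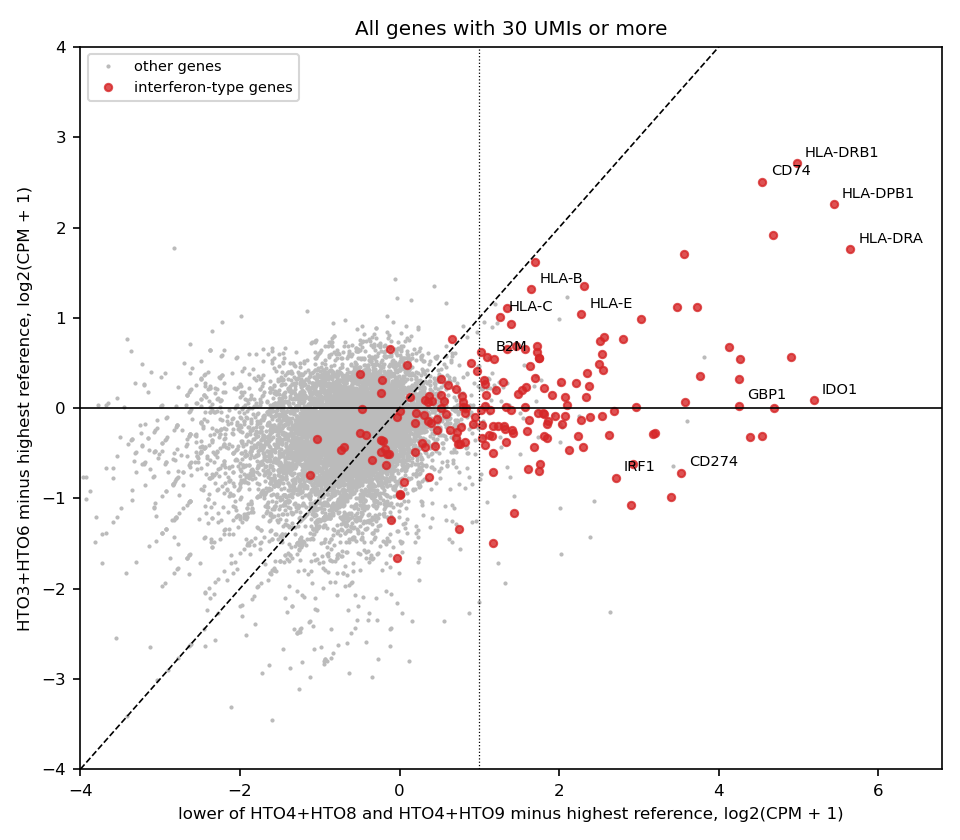
Each of 11911 genes by the log2 difference of the lower of HTO4+HTO8 and HTO4+HTO9 from the highest reference population (x axis) and that of HTO3+HTO6 (y axis), on log2(CPM + 1), with interferon-type genes in red, equal differences on the dashed line and the 2-fold limit dotted (14 genes lie outside the axes). HLA-B and HLA-C lie near the dashed line, class II genes lie part of the way up, and GBP1 and IDO1 lie along 0.

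Set against the 5 HTO2 populations, class I chains and GBP1 of HTO3+HTO6 stood on opposite sides. HLA-B and HLA-C were higher in HTO3+HTO6 than in any HTO2 population, whose highest levels were 1953 and 1304 CPM, both in HTO2+HTO8. GBP1 was lower in HTO3+HTO6 than in any of them, where it ran from 75.3 to 2580 CPM. CD74 in HTO3+HTO6 lay inside their range of 213 to 1088 CPM. Of the 89 near-low genes, 68 were below every HTO2 population in HTO3+HTO6 and 0 above all of them. Of the kept and between genes, 4 were above every HTO2 population, BTN3A2 among them, and 1 was below all of them.

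Summed UMIs cannot tell a lower level in every cell from fewer cells with the gene, so single cells were thinned to 3000 UMIs each (112, 181 and 102 cells of HTO3+HTO6, HTO4+HTO8 and HTO4+HTO9; 12, 16 and 8 shallower cells left out). The median cell held 15 UMIs of HLA-B and HLA-C together in HTO3+HTO6, with quartiles of 9 and 21, against medians of 19 in HTO4+HTO8, 17.5 in HTO4+HTO9 and 4 to 6 in the reference. The quartiles of HTO3+HTO6 overlap those of HTO4+HTO8 (12 and 24), and its lower quartile lies within the upper quartiles of the reference populations (7 to 10). Class II chains with CD74 had a median of 2 UMIs per cell, against 14 and 15, and 0 in each reference population. Guanylate-binding proteins had a median of 0 UMIs in HTO3+HTO6, against 6 and 8, and 0 in each reference population.

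**Figure D4:**
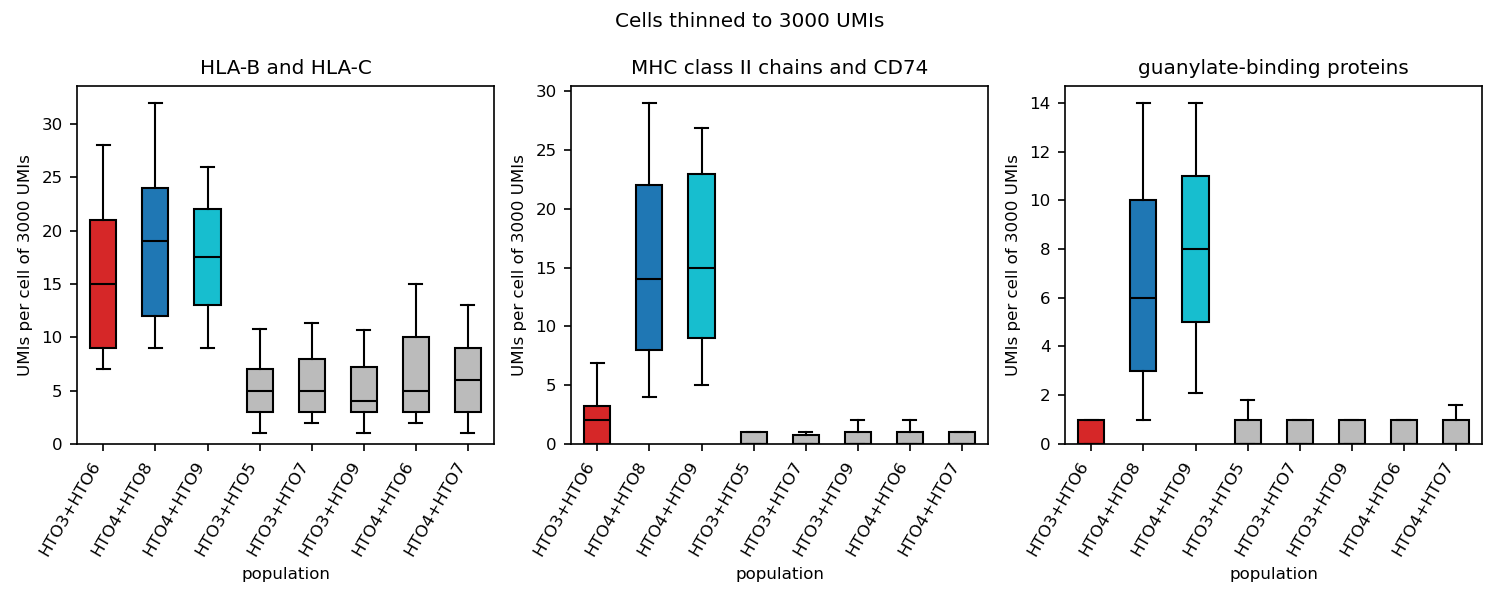
UMIs per cell (y axes) after thinning each cell to 3000 UMIs, by population (x axes), for HLA-B and HLA-C, for class II chains with CD74, and for guanylate-binding proteins; boxes span the quartiles, the line is the median and whiskers run to the 10th and 90th percentiles. HTO3+HTO6 (red) overlaps the blue boxes in the first panel, lies between in the second and is level with the grey reference populations in the third.

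A CD74 UMI was found in 60.7% (exact Clopper-Pearson 95% interval 51.0 to 69.8) of the thinned HTO3+HTO6 cells, in 97.2% and 96.1% of HTO4+HTO8 and HTO4+HTO9, and in 15.9% to 25.0% of the reference. Unthinned, at a median of 7194 UMIs, 75.8% of HTO3+HTO6 cells had one. A HLA-DRB1 UMI was found in 29.5% of thinned HTO3+HTO6 cells, against 71.8% and 68.6% and 1.39% to 7.14% in the reference. For GBP1 the share was 10.7% (5.66 to 18.0), against 69.6% and 79.4% and 6.25% to 8.73%, and for IDO1 9.82%, against 80.1% and 85.3%. IRF1 was found in 20.5% of HTO3+HTO6 cells, against 81.2% and 84.3% and 22.2% to 35.3%. All cells of the library were labelled as 1 line, so no cell type that should lack these genes was at hand to measure free RNA. The reference shares, from cells with medians of 8018 to 9450 UMIs, were the background used.

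The spread over cells was described by the cells with the most UMIs. The 12 thinned cells with the most CD74 held 44.3% of its CD74 UMIs, against 24.9% in the top 19 of 181 HTO4+HTO8 cells and 24.3% in the top 11 of 102 HTO4+HTO9 cells. For HLA-B and HLA-C the same numbers of top cells held 22.2%, 21.1% and 18.8% of the UMIs. Such shares run higher where the mean count is lower, so no difference in spread is read from them, and the reference populations, with still fewer CD74 UMIs, had 56.7% to 75%. HTO3+HTO6 cells with a CD74 UMI (68) had a median of 16.5 UMIs of HLA-B and HLA-C and those without (44) 13, both above the reference medians.

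Barcodes that failed only on mitochondrial UMIs gave HLA-B, CD74 and GBP1 the same classes, but fewer genes between. There were 280 such HTO3+HTO6 barcodes (over 20% to 50%), with 1567706 UMIs, more than the cells themselves. HLA-B was at 2565 CPM in them, against 3051 and 2798 in those of HTO4+HTO8 and HTO4+HTO9 and 759 to 1265 in the reference. CD74 was at 583 CPM, against 2010 and 1926 and a reference of 92.5 to 152. GBP1 was at 38.9 CPM, against 319 and 480 and a reference of 24.2 to 35.8. HLA-C (1732 CPM against 2010 and 1758) and B2M (4226 against 6226 and 5565) were under the 2-fold limit there and so had no class. Of the 116 raised genes 72 were raised in these barcodes too, 59 of them in the same class, 49 as near low. Of the 23 genes between, 9 were between there too, 8 were near low, among them PSMB9 (0.10), HLA-DPA1 (0.20), HLA-DRA (0.30) and CIITA, and 6 were not raised. Of the 89 near-low genes 36 were not raised there. At the filter's edge, HLA-B was at 2885 CPM in the 72 HTO3+HTO6 barcodes with 15% to 20% mitochondrial UMIs and at 2645 CPM in the 71 with over 20% to 25%. For the hashtag ratio, HLA-B was at 1919 CPM in 5 cells with a second hashtag 4 to 8 times the third, and at 2186 CPM in 8 barcodes with 2 to 4 times, which the rule left out.

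**Figure D5:**
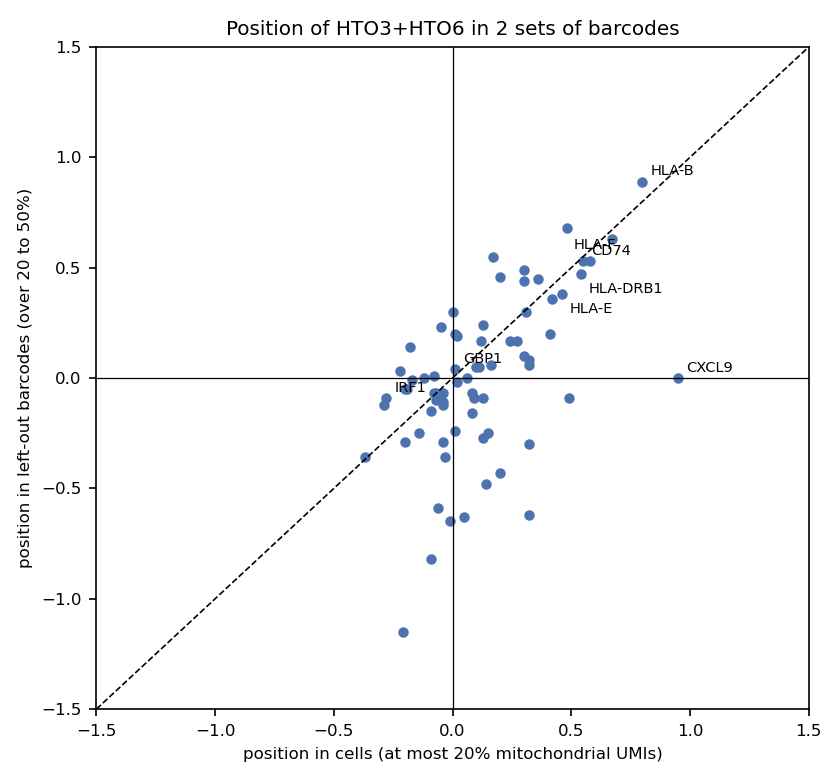
Position of HTO3+HTO6 for the 72 interferon-type genes raised in both sets of barcodes, in cells with at most 20% mitochondrial UMIs (x axis) and in barcodes with over 20% to 50% (y axis), with equality dashed (1 gene lies outside the axes). HLA-B is high in both (0.80 and 0.89), GBP1 is near 0 in both, and CXCL9 lies at 0.95 in the cells and 0.00 in the left-out barcodes.

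What the classes share was looked at in the genome and in promoters. The populations were chosen by interferon-type levels, those of MHC genes among them. A place in the MHC region and a Y box go largely with being an MHC gene. The shares below are thus a description and not separate support for the classes. Between HLA-F and HLA-DPB1 (chr6:29722775-33087201) lay 3 of the 4 kept genes, 11 of 23 between (47.8%) and 9 of 89 near low (10.1%), against 23 of all 116 raised (19.8%), 2 of 69 interferon-type genes not raised (2.90%) and 89 of all 11911 genes tested (0.747%). Among the near-low genes there were TAP1 and TAP2, next to the PSMB8 and PSMB9 genes that were between. The Y box was found in the 250 bases before the start of 3 of 3 kept genes with a RefSeq promoter (HLA-B, HLA-C and CXCL9, whose call did not hold), 6 of 17 between (35.3%) and 4 of 66 near low (6.06%), against 1 of 46 interferon-type genes not raised (2.17%) and 3.98% of 27305 promoters. By list it was in 4 of 5 class I promoters and 5 of 11 class II promoters, and in 0 of 4 of guanylate-binding proteins. The ISRE-type match was in 1 of 3 kept, 5 of 17 between (29.4%) and 25 of 66 near-low promoters (37.9%), against 14 of 46 interferon-type genes not raised (30.4%) and 3.07% of all promoters. The GAS-type match was in 0, 1 and 12 of them (18.2% of near low), against 6 of 46 interferon-type genes not raised and 6.78% of all promoters. These are matches of letters, not shown to be sites, and class I and class II genes are related by descent, so their promoters are not independent. A site whose letters differ from the pattern was missed, so a promoter with no match is not shown to lack the element.

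Outside the interferon-type lists, 345 genes were 2-fold higher in HTO3+HTO6 than in both HTO4+HTO8 and HTO4+HTO9, of which 189 lay above every reference population, 147 inside the reference range and 9 below it. Of the 273 that were 2-fold lower, 171 lay below every reference population, 87 inside the range and 15 above it. Of all genes called in either direction, 47.3% were higher. With size factors from the median of ratios this was 37.1%, since over all genes the median difference from HTO4+HTO9 was 0.15 on the log2 scale with CPM and 0.01 with those factors. The secreted protein gene AGR2 was at 419 CPM (380 to 461) in HTO3+HTO6, 45.1 in HTO4+HTO8 and 28.7 in HTO4+HTO9, at the top of the reference of 176 to 408. The tetraspanin gene TSPAN8 was at 61.4 CPM against 4.04 and 1.31, with a reference of 8.42 to 64.0. S100A9, a calcium-binding protein gene of myeloid and epithelial cells, was at 86.6 CPM (69.3 to 107) against 3.37 and 2.61, above the reference of 0.736 to 24.6. In the left-out barcodes, however, S100A9 in HTO3+HTO6 was below the higher of HTO4+HTO8 and HTO4+HTO9, by 1.33 on the log2 scale. The trefoil factor genes TFF1 and TFF2 were at 20.1 and 14.1 CPM, against 2.02 and 0.674 in HTO4+HTO8, and MSMP was at 113 CPM against 8.08 and 6.53 and a reference of 3.83 to 177. Under other settings these 3 fell below the higher of HTO4+HTO8 and HTO4+HTO9, which need not hold against the lower. In the left-out barcodes MSMP was at -1.20 and TFF2 at -0.50 on the log2 scale. With the stricter filter, which left 15 cells of HTO3+HTO6 with 81872 UMIs, MSMP was at -3.74, TFF1 at -3.50 and TFF2 at -2.85. With a hashtag ratio of 8 MSMP was at -0.39. The other 4 of the 10 largest (LAPTM5, AC079848.2, CREB3L1 and MKLN1-AS) had 5 to 11 UMIs in HTO3+HTO6 and 0 in both others.

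The 10 genes lowest against both were IDO1, EXOC3L1, IL18BP, GBP4, HLA-DOA, CXCL11, GBP5, CD274, GBP1 and AC022034.1. IL18BP, which binds and blocks interleukin 18, was at 5.04 CPM against 186 and 174 and a reference of 3.68 to 6.49. EXOC3L1 had 0 UMIs in HTO3+HTO6 (interval to 3.72 CPM), against 33.7 and 28.7 CPM and a reference of 0.745 to 3.78. GBP5 had 3 UMIs, against 80.8 and 116 CPM. The lncRNA AC022034.1 was at 4.03 CPM against 83.5 and 88.8, with a reference of 2.30 to 6.87. In HTO3+HTO6 these 4 genes were thus at or near the low reference levels.

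Some other programmes differed between these populations. Hypoxia genes summed to 2019 CPM in HTO3+HTO6, below HTO4+HTO8 (3168), HTO4+HTO9 (3543) and all reference populations (2191 to 2903). The G2 and M phase genes summed to 1234 CPM, against 688 and 311, inside the reference of 874 to 1901. NF-kB feedback and TNF-type genes summed to 571 CPM (525 to 620), against 1051 and 1172, inside the reference of 472 to 772. S phase genes summed to 487 CPM, against 555 and 445, inside the reference of 389 to 584. Immediate early and heat shock genes summed to 1346 CPM, against 1290 and 1329, below the reference of 1460 to 1722. Unfolded protein response genes summed to 729 CPM, against 650 and 569, above the reference of 651 to 682. In these last lists 0 genes were 2-fold higher or lower than both. The part of these programmes in the interferon-type levels was not tested.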

How the data were processed

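The authors deposited 1 matrix of raw UMI counts, with 36601 genes and the hashtags in 9083 distinct barcodes. The software is Cell Ranger 5.0.1 per the file headers, but version 2.1.1 in the submitters' processing notes, where the build is GRCh38. The annotation behind the counts was not given in the sources used here. Of the gene identifiers, 34616 matched GENCODE 29, the source of gene coordinates. Promoters came from RefSeq.

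UMIs were summed per hashtag pair and scaled to CPM. Barcodes with another hashtag past the ratio limit were left out, and no doublet caller was run. Populations held 110 to 507 cells and 765923 to 5058403 UMIs. Depth limits genes of few UMIs, and all intervals cover counting error only. No test was made, since there was 1 library, no replicate and no map from pairs to tumours. Of 206 listed interferon-type genes in 16 lists, 203 were in the matrix (HLA-H was not matched, and RARRES3 and STING1 were there under PLAAT4 and TMEM173) and 185 had 30 UMIs or more.

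The populations, lists and limits were chosen with earlier results of these data known. Named genes were 11 fixed genes, the 3 raised genes with most UMIs per list, the 5 highest and 5 lowest positions, and the 10 largest folds above and below both populations; others were named after their values were seen. Some genes that count in the lists are not reported here. The classes were run on simulated counts in which all reference populations shared the same mean levels. Real reference populations differ, so this check does not cover their spread. There were 22 alternatives to filters, hashtag ratio, scaling, pseudocount, limits and populations. Columns of other samples numbered 0. The work used pandas 2.3.3, numpy 2.4.6, matplotlib 3.10.9 and scipy 1.17.1 under Python 3.11.15.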

Additional observations from a re-analysis of the deposited data

Results flagged for a closer look

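HTO10 was not among the hashtags HTO2 to HTO9 from which pairs were called. It had 417 counts in the 124 cells of HTO3+HTO6, a median of 2 per cell. It had 405 in HTO4+HTO8, 221 in HTO4+HTO9, 698 in HTO4+HTO6 and 406 in HTO4+HTO7, but 6 to 17 in the other 3 HTO3 populations.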

How the results depend on the processing

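Of 1112 positions of named genes still raised under the 22 alternatives, 1056 kept their class, 51 moved to or from the class between and 5 crossed from kept to near low or back. These were CXCL9 in the left-out barcodes (0.00) and, with the stricter cell filter, ISG15 (1.07), DDX58 (0.77), APOL2 (1.18) and GBP5 (0.70). HLA-B was kept in 22 of 22, at 0.75 to 1.05. HLA-C was kept in 20 and under the fold limit in the other 2, the left-out barcodes and 3-fold. CXCL9 was kept in 14. The alternative fold limits and UMI minimums decide only whether a gene is raised, and cannot change its position. Leaving out a reference population changes a position only where that population was the highest. An unchanged class under these settings was thus largely fixed in advance, and the counts above include them.

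The stricter filter left 15 cells in HTO3+HTO6 and gave 19 kept, 36 near low, a median position of 0.35 and 731 genes lower than both. The left-out barcodes alone gave 74 raised and 58 near low, with 193 genes higher and 229 lower. A limit of 3-fold gave 77 raised, 2 kept, 59 near low, 66 higher and 173 lower, and 1.5-fold gave 1182 higher and 871 lower. The median position was 0.15 with the mean over cells. Leaving out each reference population in turn gave 114 to 122 raised, 4 to 6 kept, 86 to 88 near low and median positions of 0.02 to 0.12.

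Counts over all genes depended most on the settings. Genes higher and lower than both numbered 185 and 246 with 50% mitochondrial UMIs allowed, 160 and 250 with no cell filter, 102 and 179 with a pseudocount of 5 CPM, 176 and 200 with 100 UMIs required, and 1516 and 712 with no minimum. Against HTO4+HTO8 alone 649 were higher, and against HTO4+HTO9 alone 1254 were higher and 676 lower. The log2 difference from the higher of HTO4+HTO8 and HTO4+HTO9 turned negative for single genes, which need not hold against the lower. In the left-out barcodes these were S100A9 (-1.33), MSMP (-1.20), CREB3L1 (-0.17) and TFF2 (-0.50). With the stricter filter they were MSMP (-3.74), TFF1 (-3.50) and TFF2 (-2.85), and with a hashtag ratio of 8 MSMP (-0.39). The cause was not tested, except that the stricter filter has fewer cells. No paired analysis was possible because hashtag pairs have no replicate numbers.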
